A study of Homo sapiens with 108 samples.

Results

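Transcription factor genes of the SOX, TBX, LHX, GATA, DLX, PITX and NKX families and of the family of SIX2 to SIX6 were followed in 4 human lymphoma cell lines treated with EPZ6438, an inhibitor of the histone methyltransferase EZH2. Members were chosen by name alone: every probe set of the array whose single annotated symbol was one of these family names with a number. This gave 69 genes out of 19775 with a single annotated symbol, namely 19 SOX, 13 TBX, 10 NKX, 8 LHX, 6 DLX, 6 GATA and 2 PITX genes and 5 genes from SIX2 to SIX6. They had 154 probe sets, and for the 43 genes with several the one with the highest mean over all arrays stood for the gene. The lines, Pfeiffer, Karpas422, WSU-DLCL2 and SU-DHL6, are from non-Hodgkin lymphoma and received DMSO, the solvent, or EPZ6438 at doses called LCC and 10xLCC, for 2, 4 or 6 days. Each of the 36 groups had 3 arrays, lettered A, B and C, and 27 arrays came from each line. The EZH2 Y641 mutation, which changes the enzyme's substrate preference, is known from WSU-DLCL2, SU-DHL6 and Karpas422, called the Y641 lines here, while Pfeiffer carries another activating EZH2 mutation. The labels give neither. What concentration LCC stands for was not stated in the labels, so no dose is matched between lines. The labels do not say whether A, B and C were separate cultures, so p-values measure only the spread between these arrays, which may be technical. Each line is a single established culture, so a difference between lines cannot be told apart from a difference between mutation states. All values were relative intensities after GCRMA normalisation and are given as log2.

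EZH2 is the catalytic subunit of Polycomb repressive complex 2 (PRC2), which puts methyl groups on lysine 27 of histone H3. Genes of these 8 families are textbook PRC2 targets: they set body axes, organs and cell lineages in the embryo, and their CpG-rich promoters carry the mark in cells that do not use them. SOX proteins bind DNA through an HMG box, T-box factors through the domain that names them, GATA factors through zinc fingers, and the LHX, SIX4-like, DLX, PITX and NKX factors through homeodomains. In blood, GATA1 and GATA2 direct red cell, platelet and stem cell programmes, GATA3 and TBX21 direct T cell fates, and SOX4 supports early B cell development.

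Promoters are shown for 4 members: SIX4 and its neighbour SIX6, which was never called, and the sister genes SOX5 and SOX6. For SOX9, which gave the largest response, the table used here holds no window. SIX4 and SIX6 lie within 300 kb of each other on chromosome 14. Of all neighbouring members they differed most in called comparisons, with 10 and 0. SOX5 and SOX6 belong to the SoxD group, and both rose late. The windows run 5′ to 3′ on the strand of the gene, from 250 bases before to 50 bases after a start site, and come from RefSeq on GRCh38.p14. Capitals mark each CG dinucleotide, the site of DNA methylation, which reads the same on both strands.
SIX4 (chr14:60724302-60724601, minus strand, 14 CG): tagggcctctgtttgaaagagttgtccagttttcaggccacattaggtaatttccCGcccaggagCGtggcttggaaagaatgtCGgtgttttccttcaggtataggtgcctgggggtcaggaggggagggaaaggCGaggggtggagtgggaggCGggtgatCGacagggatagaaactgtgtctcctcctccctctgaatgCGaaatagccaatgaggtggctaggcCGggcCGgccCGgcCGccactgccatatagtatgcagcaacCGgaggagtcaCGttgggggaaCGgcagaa
SIX6 (chr14:60508896-60509195, plus strand, 23 CG): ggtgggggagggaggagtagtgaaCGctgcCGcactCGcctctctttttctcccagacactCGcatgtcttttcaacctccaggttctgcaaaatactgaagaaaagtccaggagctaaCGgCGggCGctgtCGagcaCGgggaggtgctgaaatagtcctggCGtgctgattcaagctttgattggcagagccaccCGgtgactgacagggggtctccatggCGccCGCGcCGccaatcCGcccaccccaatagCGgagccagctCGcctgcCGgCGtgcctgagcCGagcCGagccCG
SOX5 (chr12:24562442-24562741, minus strand, 29 CG): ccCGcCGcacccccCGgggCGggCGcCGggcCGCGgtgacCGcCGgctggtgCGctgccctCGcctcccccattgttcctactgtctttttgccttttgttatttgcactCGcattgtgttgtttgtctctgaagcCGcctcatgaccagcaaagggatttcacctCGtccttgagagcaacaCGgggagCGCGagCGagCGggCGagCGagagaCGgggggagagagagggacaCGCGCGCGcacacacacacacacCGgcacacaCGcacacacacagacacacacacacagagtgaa
SOX6 (chr11:16738428-16738727, minus strand, 22 CG): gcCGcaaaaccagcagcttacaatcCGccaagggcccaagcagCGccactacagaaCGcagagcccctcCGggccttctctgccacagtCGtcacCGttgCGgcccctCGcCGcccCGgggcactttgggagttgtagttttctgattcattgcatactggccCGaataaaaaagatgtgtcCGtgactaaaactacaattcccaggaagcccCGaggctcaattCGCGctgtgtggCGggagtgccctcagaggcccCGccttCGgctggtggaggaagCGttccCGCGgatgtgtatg

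SIX4, the responsive member of its pair, had the fewest CG of the 4 windows, 14, and 50.3% of the 35116 promoter windows in the table hold at least as many. SIX6 had 23 (35.8% of windows), SOX5 had 29 (24.2%) and SOX6 had 22 at the richest of its 5 start sites (37.7%). Of the 69 members 45 matched this table. Their richest windows held a median of 23 CG, against 16 over the 27305 genes of the table, and 73.3% of them held at least 20, against 44.7% of all genes. The median was 29 for the 25 matched members called at least once under EPZ6438 and 22 for the 20 never called, which is a description with no test.

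The arrays were alike in scale, with medians from 6.25 to 6.45. Arrays lay a median of 0.175 log2 from their fellow replicates (distance over all genes), and at most 0.699, in Pfeiffer LCC day 6 replicate B. The beta-actin 3′ to 5′ probe ratio, a measure of RNA degradation, was near 0 in most groups but 1.25 in DMSO, 2.37 at LCC and 2.25 at 10xLCC in Karpas422 at day 6 (log2). In SU-DHL6 at day 6 it was -0.18 in DMSO and 0.34 at 10xLCC. The transcript of EZH2, whose enzyme activity the drug blocks, fell at 10xLCC and day 6 by 0.30 ± 0.10 (WSU-DLCL2), 0.26 ± 0.09 (SU-DHL6) and 0.51 ± 0.07 (Karpas422; SE) (adjusted p = 0.023, 0.026 and 2.5e-06, limma), with -0.13 ± 0.15 in Pfeiffer (adjusted p = 1.0). All 7 measured B cell markers of 8 stood at log2 8 or more in DMSO in the 3 Y641 lines, and 5 of 7 did in Pfeiffer. Of 17 T cell and NK cell markers 3 did in Pfeiffer, 2 in Karpas422, 0 in SU-DHL6 and 1 in WSU-DLCL2, and of 9 measured myeloid markers none did in any line. Each line had 1 of 13 erythroid, megakaryocyte and mast cell markers (EPOR) and 1 of 10 neural markers (TUBB3) at that level. Of 14 epithelial and stromal markers SU-DHL6 had 1 and each other line 2, with DCN at 13.61 in Karpas422 and EPCAM at 11.94 in Pfeiffer.

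Without the drug, the lines differed widely in a few members. Of 67 members tested across the lines, 30 had a DMSO level that differed (limma's moderated F test, adjusted p below 0.05), which is 44.8%, against 70.0% of all 19224 genes. In only 8 were the highest and lowest line means at least 1 log2 apart, and in 4 at least 2. PITX1, a homeodomain factor of hindlimb and pituitary, had the widest range. Its level was 13.12 ± 0.27 in Karpas422 and 10.78 ± 0.31 in WSU-DLCL2, with 8.49 ± 0.40 for SU-DHL6 and 8.12 ± 0.27 for Pfeiffer (SD, n = 9 DMSO arrays over the 3 days, adjusted p = 9.4e-63). Only the arrays of the lowest 2 lines overlapped, at 7.92 to 9.22 and 7.60 to 8.43. SOX5 was the opposite case, with its highest level in Pfeiffer, 9.09 ± 0.24, far above 5.74 ± 0.13 in Karpas422, 5.07 ± 0.17 in SU-DHL6 and 4.93 ± 0.23 in WSU-DLCL2. The arrays of SU-DHL6 and WSU-DLCL2 overlapped, at 4.80 to 5.27 and 4.67 to 5.29. SIX4, a factor of muscle and sensory placodes, stood at 10.01 ± 0.22 in Karpas422, 7.76 ± 0.12 in Pfeiffer, 6.26 ± 0.24 in SU-DHL6 and 5.96 ± 0.31 in WSU-DLCL2, again with the lowest 2 lines overlapping. SOX9, the regulator of cartilage and gonad, stood at 7.63 ± 0.17 in Karpas422 and at 4.65 to 4.79 in the other lines, whose arrays overlapped.

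**Figure D1:**
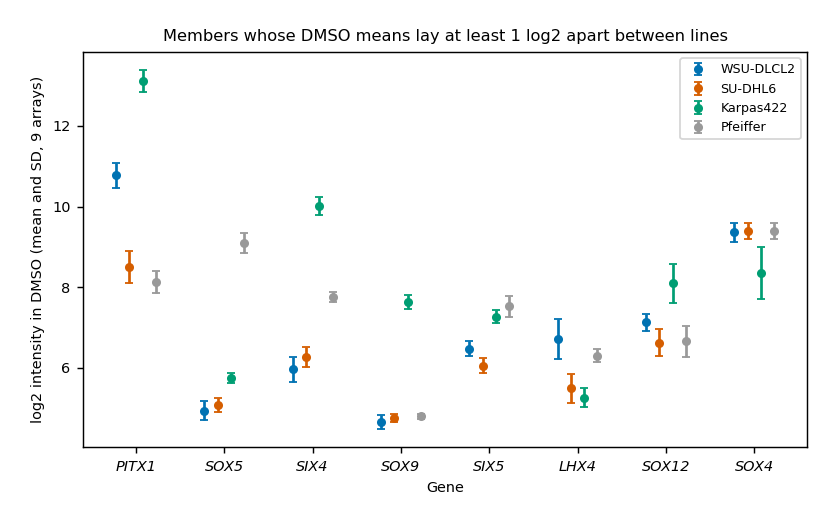
Untreated level (log2 intensity, mean and SD of 9 DMSO arrays per line) of the 8 members whose line means lay at least 1 log2 apart. PITX1, SIX4 and SOX9 were highest in Karpas422 and SOX5 in Pfeiffer, and levels are to be compared between lines within a gene, not between genes.

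Smaller differences separated the other 4. SIX5 was higher in Pfeiffer (7.52 ± 0.26) and Karpas422 (7.26 ± 0.16), which overlapped, than in WSU-DLCL2 (6.47 ± 0.18) and SU-DHL6 (6.05 ± 0.19), which also overlapped. LHX4, a LIM homeodomain factor of pituitary and motor neurons, had higher means in WSU-DLCL2 (6.71 ± 0.50) and Pfeiffer (6.29 ± 0.16). Those of SU-DHL6 (5.49 ± 0.36) and Karpas422 (5.25 ± 0.24) were lower. The SU-DHL6 arrays, at 5.14 to 6.21, overlapped those of WSU-DLCL2 (5.89 to 7.34) and Pfeiffer (6.09 to 6.55). SOX12 stood highest in Karpas422 (8.09 ± 0.48) and SOX4 lowest there (8.35 ± 0.65, against 9.36 to 9.40 in the other lines). The second brightest SOX4 probe set put Karpas422 at 8.37 and the other lines at 8.56 to 8.63, a much smaller gap. For SOX12 the second probe set put Karpas422 at 7.38, close to WSU-DLCL2 at 7.34, with 6.98 in SU-DHL6 and 6.84 in Pfeiffer. Both genes moved over time in untreated Karpas422: from day 2 to day 6, SOX4 fell by 1.28 ± 0.13 and SOX12 rose by 0.96 ± 0.13 (adjusted p = 4.4e-08 and 1.3e-06). The SOX4 fall was in the probe set used: of the 5 others, 3 changed by 0.39, 0.72 and 0.12 and the dimmest 2 by -0.25 and -0.07. The second SOX12 probe set changed by 0.40. The day 6 arrays of Karpas422 are also those with the raised beta-actin ratio, and its part in this drift was not tested. NKX2-5, the cardiac homeobox gene, was 0.98 above its lowest line in Pfeiffer, at 8.70 ± 0.25. GATA1 did not pass the test, with line means 0.14 apart around 7.75 in WSU-DLCL2 (adjusted p = 0.47). DMSO drift from day 2 to day 6 was called for 6 of 66 members tested in Karpas422 (all genes 31.4%), 2 in WSU-DLCL2 (12.1%), 2 in SU-DHL6 (3.55%) and 0 of 67 in Pfeiffer (0.00528%; limma, with 0 members at unadjusted p under 0.05).

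EPZ6438 changed a smaller share of these genes than of all genes at 10xLCC and day 6. A gene was called at an adjusted p below 0.05 in limma's test within a line, adjusted over all genes tested there, and the percentages in parentheses give the share of all those genes that was called. At 10xLCC and day 6, WSU-DLCL2 had 5 of 66 tested members called (36.1%), 3 up (17.0%) and 2 down (19.2%). SU-DHL6 had 24 of 66 (46.5%), 6 up (19.8%) and 18 down (26.7%). Karpas422 had 7 of 66 (37.6%), 6 up (18.4%) and 1 down (19.2%), and Pfeiffer had 0 of 67 (0.222%). As a share of members these were 7.58%, 36.4%, 10.6% and 0.0%.

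At day 4 the counts were 11 in WSU-DLCL2 (33.6%), 9 up (18.9%) and 2 down (14.7%), then 3 in SU-DHL6 (20%), 2 up (10.3%) and 1 down (9.64%). Karpas422 had 7 (26.0%), 4 up (10.8%) and 3 down (15.2%), and Pfeiffer 0 (0.0687%). At day 2 WSU-DLCL2 had 3 (25.4%), 1 up (11.1%) and 2 down (14.3%), and SU-DHL6 had 3 (8.64%), all up (7.86%; 0.783% of all genes fell). Karpas422 had 4 (6.60%), 3 up (4.65%) and 1 down (1.95%), and Pfeiffer 0 (0.00528%). In Pfeiffer 5, 7 and 2 members had an unadjusted p under 0.05 at days 2, 4 and 6. The LCC and 10xLCC comparisons of a day share their DMSO arrays.

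**Figure D2:**
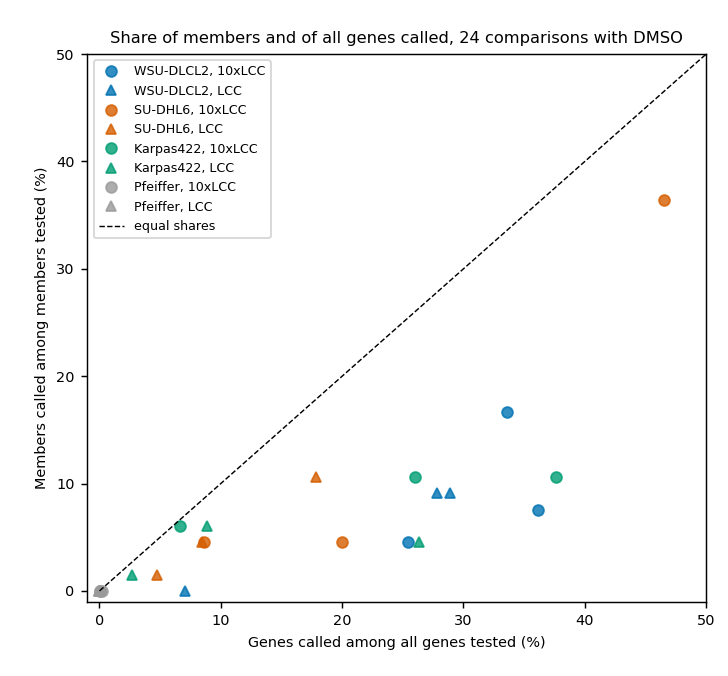
Share of tested members called (vertical, percent) against the share of all tested genes called (horizontal, percent) for each of the 24 comparisons of LCC or 10xLCC with DMSO. SU-DHL6 at 10xLCC and day 6 stands apart at 36.4% of members and 46.5% of all genes, and most other comparisons lie below the line of equal shares.

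These shares were also counted with a stricter filter on the level of the probe sets. Only 38 to 42 members per line reached log2 6 on at least 3 arrays, and the filter used here asked for log2 4. With the higher filter the shares at day 6 were 11.9% of 42 members and 47.2% of all genes in WSU-DLCL2, 52.6% of 38 and 57.0% in SU-DHL6, and 16.7% of 42 and 48.9% in Karpas422. LHX8 and TBX22 passed in no line and NKX2-3 only in Pfeiffer. Over the 24 comparisons with DMSO, 38 members were called at least once and 31 never, 29 of them tested, and no change of a never-called member exceeded 0.60. The share of all genes called at least once was not counted. For 55 members the means of all 36 groups lay within 1 log2.

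Scaling moved the balance of small changes. Centring each array on 4896 bright genes moved the median change of all genes at 10xLCC and day 6 from 0.02 to 0.17 in WSU-DLCL2, from -0.11 to 0.05 in SU-DHL6 and from -0.03 to 0.20 in Karpas422. The member counts then became 11 risen and 2 fallen, 8 risen and 2 fallen, and 14 risen and 0 fallen. At day 4 the 4 risen and 3 fallen members of Karpas422 became 4 risen and 0 fallen. Size also set how well a call held. Of the 57 member calls at 10xLCC and days 4 and 6, 33 were under 0.5 log2, of which 31 were lost under at least 1 alternative and 25 when some single array was left out. Of the 24 at or over 0.5, 9 were lost under an alternative and 0 with a single array left out.

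**Figure D3:**
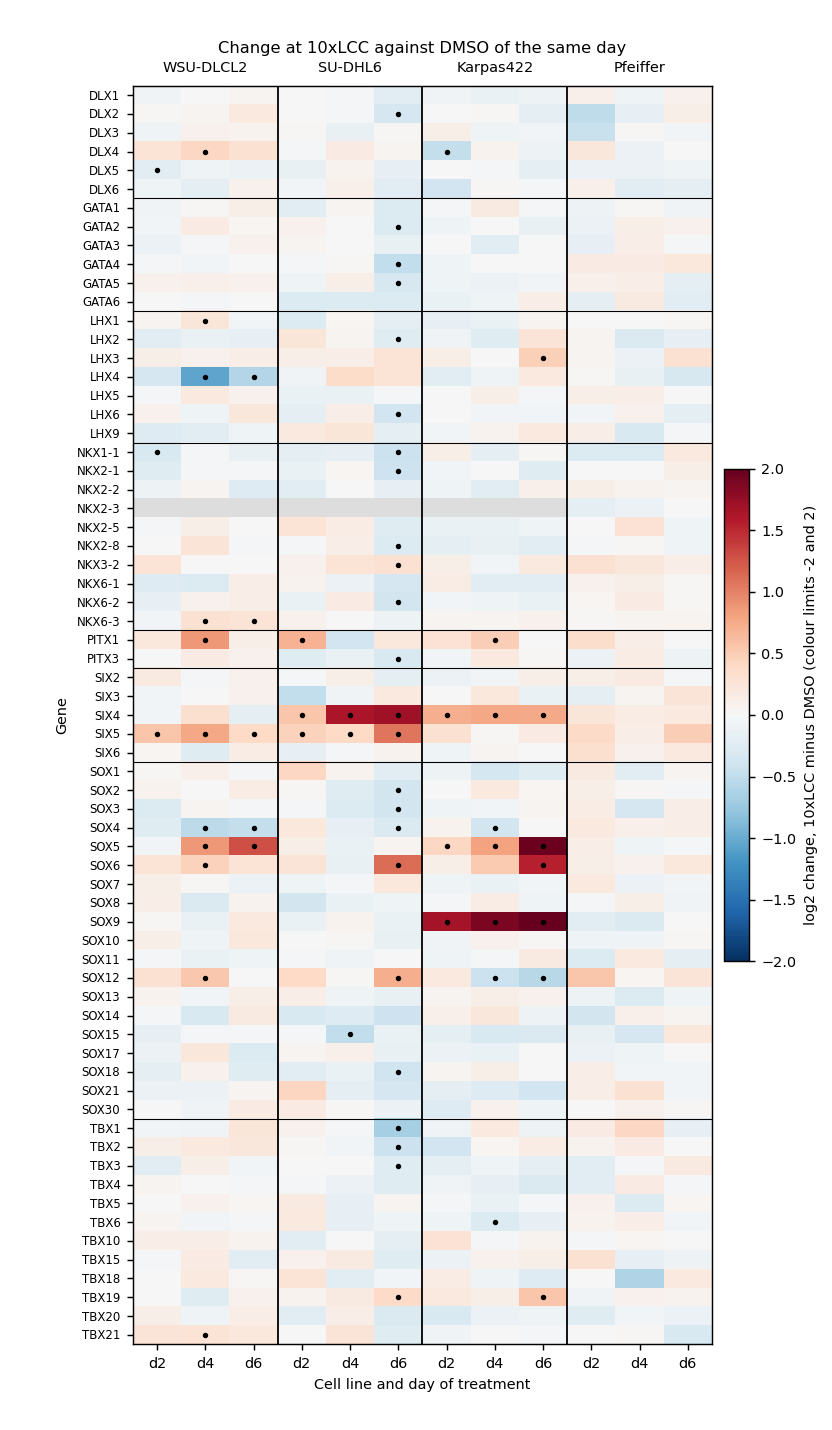
Change at 10xLCC against DMSO of the same day (log2, colour) for each member tested in at least 1 line, by line and day. Dots mark called changes and grey marks genes not tested, and the Pfeiffer columns hold no dot. The redder cells include SOX9 and SOX5 in Karpas422, SIX4 in SU-DHL6, and SOX6 at day 6 in SU-DHL6 and Karpas422. SOX5 in WSU-DLCL2 and SIX5 in SU-DHL6 at day 6 are also among them.

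Among the SOX genes, SOX9 gave the largest response. In Karpas422 the DMSO arrays read 7.58, 7.44 and 7.92 at day 2, 7.85, 7.41 and 7.70 at day 4, and 7.63, 7.60 and 7.56 at day 6. At 10xLCC they read 9.28, 9.27 and 9.38, then 9.60, 9.81 and 9.21, then 9.68, 9.68 and 9.84. Treated and DMSO arrays did not overlap at any day. SOX9 rose by 1.67 ± 0.14, 1.89 ± 0.14 and 2.13 ± 0.14 (SE, n = 3 against 3; adjusted p = 3.2e-09, 6.8e-11 and 1.4e-12), or 3.17-, 3.70- and 4.39-fold. LCC gave 1.08 ± 0.14, 1.37 ± 0.14 and 1.92 ± 0.14 on the same days (adjusted p = 1.6e-05, 9.7e-08 and 8.9e-11). At day 6 the doses differed by 0.22 (95% interval -0.06 to 0.50, adjusted p = 0.31), so a dose step was not detected there. Both probe sets of the gene moved alike, by 2.13 and 2.26 at day 6. In the other lines SOX9 read 4.35 to 5.06 on every array at every dose. The only call there was 0.31 ± 0.11 at LCC and day 6 in WSU-DLCL2 (adjusted p = 0.036), where 10xLCC gave 0.20 ± 0.11 (adjusted p = 0.17). Transcript per cell and the share of cells with the transcript cannot be told apart in such bulk cultures.

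SOX5, which acts with SOX6 beside SOX9 in cartilage, rose later and in 2 lines. In Karpas422 its DMSO arrays read 5.85, 5.98 and 5.82 at day 6, LCC read 6.63, 6.89 and 7.04, and 10xLCC read 7.80, 7.87 and 7.88. The 3 doses formed 3 separate bands. The rise at 10xLCC was 0.42 ± 0.11 at day 2, 0.81 ± 0.11 at day 4 and 1.96 ± 0.11 at day 6 (adjusted p = 0.019, 3.2e-06 and 1.5e-13), and the day 6 effect exceeded that of day 2 by 1.54 ± 0.16 (adjusted p = 5.7e-08). In WSU-DLCL2 DMSO read 4.67, 5.29 and 4.70 at day 6, LCC 5.06, 5.12 and 5.04, and 10xLCC 6.28, 6.06 and 6.19. Here 10xLCC stood apart and LCC did not. SOX5 rose there by 0.87 ± 0.16 at day 4 and 1.29 ± 0.16 at day 6 (adjusted p = 7.6e-05 and 2.5e-07), with -0.05 ± 0.16 at day 2. In SU-DHL6 all groups had means from 5.01 to 5.16, and in Pfeiffer, where the gene was already high, means stayed between 8.91 and 9.28. Of the 4 SOX5 probe sets 2 moved by at least 0.5 in Karpas422 at day 6 and 1 in WSU-DLCL2.

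SOX6, the partner of SOX5, rose at day 6 in SU-DHL6 and Karpas422. In SU-DHL6 DMSO read 8.75, 8.65 and 7.97 and 10xLCC read 9.76, 9.58 and 9.35, a rise of 1.11 ± 0.24 (adjusted p = 0.00039). In Karpas422 DMSO read 7.82, 7.58 and 8.02 and 10xLCC read 8.58, 9.84 and 9.66, a rise of 1.56 ± 0.31 (adjusted p = 0.0002). Groups did not overlap in either line, although the Karpas422 LCC arrays scattered from 7.28 to 9.24. At days 2 and 4 the changes at 10xLCC lay between -0.15 and 0.52 in these lines and none was called. Only 1 of the 8 SOX6 probe sets moved by at least 0.5 at day 6 in either line, and with the mean of all 8 the SU-DHL6 change was 0.03 (adjusted p = 0.77) and the Karpas422 change 0.21 (adjusted p = 0.011). The others stood at 3.56 to 7.44 in SU-DHL6 DMSO at day 6, several of them dim. These 2 groups are also those with the raised beta-actin ratio against their DMSO controls. With that ratio as a covariate the SU-DHL6 rise was 1.90 and stayed called. In both lines the ratio did not overlap between DMSO and 10xLCC arrays at day 6, so the covariate cannot separate degradation from treatment. In WSU-DLCL2 SOX6 rose by 0.46 ± 0.16 at day 4 (adjusted p = 0.032), a call lost without any of several single arrays, the lowest value being 0.29 (adjusted p = 0.22) without DMSO replicate A, and the mean of its probe sets there was -0.01 (adjusted p = 0.93).

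**Figure D4:**
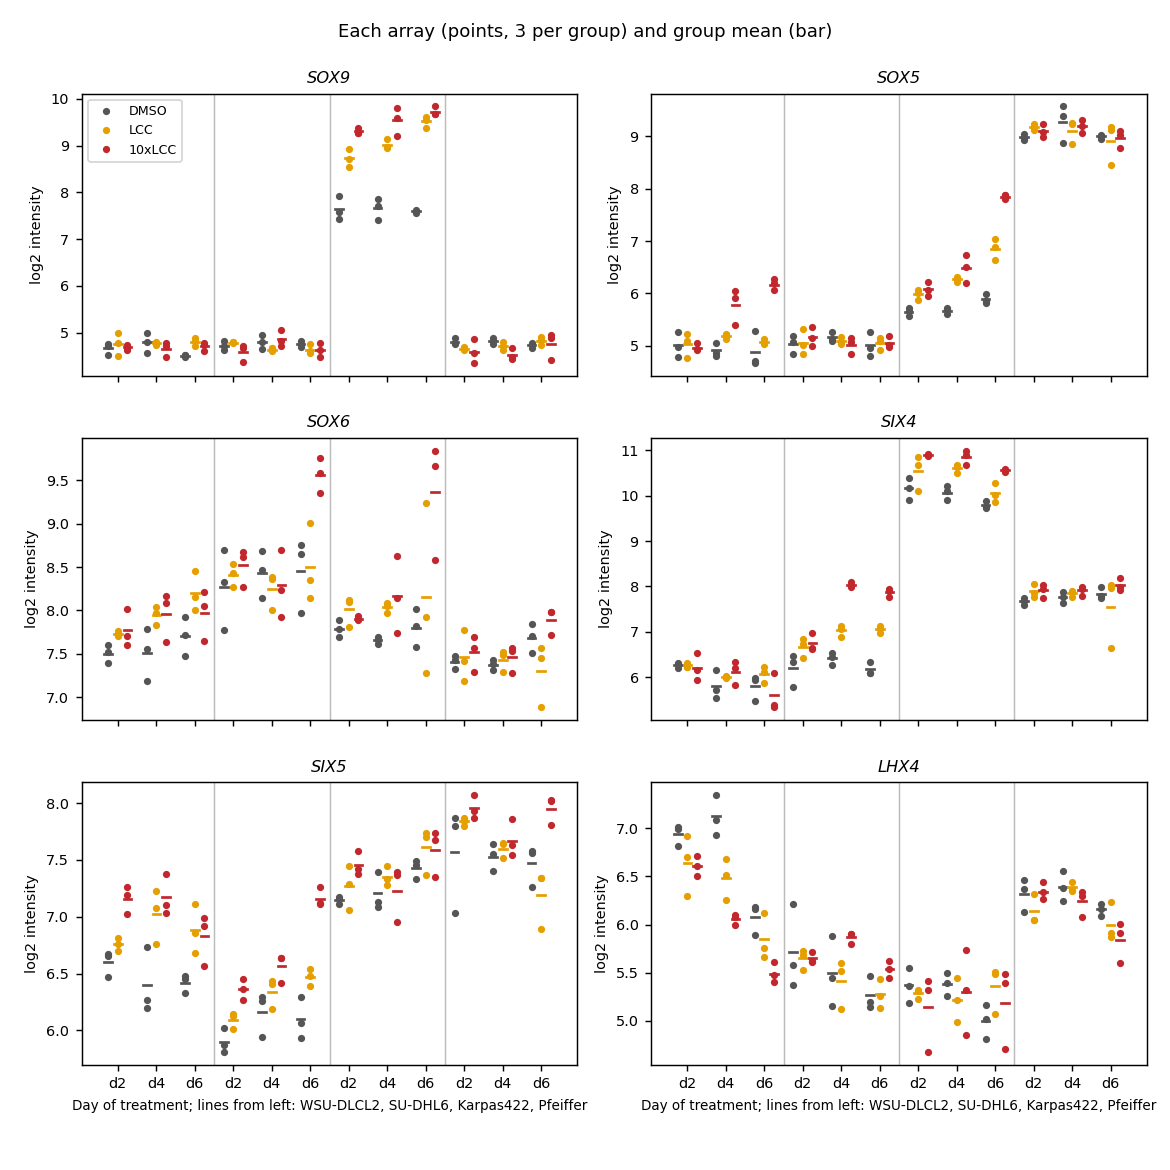
Log2 intensity of each array (points, 3 per group, coloured by dose) and group mean (bar) for the 6 members that changed at least 2-fold at day 4 or 6, by day within line. SOX9 at both doses in Karpas422 and SIX4 at both doses in SU-DHL6 separate from DMSO at days 4 and 6, SOX5 climbs with day and dose in Karpas422, and the Pfeiffer groups overlap across doses for most genes.

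SOX12 and SOX4, both SoxC genes, moved less and not always the same way. SOX12 rose by 0.54 ± 0.12 in WSU-DLCL2 at day 4 and by 0.72 ± 0.19 in SU-DHL6 at day 6 (adjusted p = 0.0012 and 0.0023), and it fell by 0.43 ± 0.13 and 0.55 ± 0.13 in Karpas422 at days 4 and 6 (adjusted p = 0.011 and 0.00079). In Karpas422 at day 6 the DMSO arrays read 8.57, 8.65 and 8.84 and the 10xLCC arrays 8.03, 8.25 and 8.12, with no overlap. The second SOX12 probe set differed: it changed by 0.08 in WSU-DLCL2 at day 4, 0.23 in SU-DHL6 at day 6, and -0.09 and 0.06 in Karpas422 at days 4 and 6. With centred arrays the Karpas422 day 6 difference was -0.33 (adjusted p = 0.071), and with the beta-actin covariate the SU-DHL6 change was -0.03 (adjusted p = 0.98). SOX4 fell in WSU-DLCL2 by 0.53 ± 0.11 at day 4 and 0.47 ± 0.11 at day 6 (adjusted p = 0.00049 and 0.0015). Its day 6 arrays there read 9.12, 9.10 and 9.05 in DMSO and 8.77, 8.36 and 8.72 at 10xLCC. It also fell by 0.37 ± 0.13 in Karpas422 at day 4 (adjusted p = 0.040), a call that ended with centring (adjusted p = 0.16), and by 0.29 ± 0.11 in SU-DHL6 at day 6 (adjusted p = 0.032), where the sign turned with the covariate (0.21) and with the mean of probe sets (0.14). In those SU-DHL6 arrays 2 other SOX4 probe sets stood above every DMSO array, by 0.77 and 0.57. All 19 SOX genes were tested, those already described included. At 10xLCC and day 6 Karpas422 had 3 up (18.4% of all genes) and 1 down (19.2%). WSU-DLCL2 had 1 up (17.0%) and 1 down (19.2%), and SU-DHL6 2 up (19.8%) and 4 down (26.7%). SOX11, used clinically to recognise mantle cell lymphoma, stood at 5.26 to 5.30 in DMSO in all lines and was never called.

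In the family of SIX2 to SIX6, which works with EYA coactivators, SIX4 and SIX5 rose and SIX2, SIX3 and SIX6 were never called. SIX4 in SU-DHL6 read 6.44, 6.26 and 6.53 in DMSO, 7.12, 7.06 and 6.89 at LCC and 7.99, 8.02 and 8.10 at 10xLCC at day 4. At day 6 it read 6.08, 6.33 and 6.10, then 6.98, 7.12 and 7.05, then 7.95, 7.89 and 7.77. The 3 doses did not overlap on either day. SIX4 rose at 10xLCC by 0.55 ± 0.14, 1.63 ± 0.14 and 1.70 ± 0.14 at days 2, 4 and 6 (adjusted p = 0.0097, 1.8e-09 and 1.6e-10), and LCC gave 0.88 ± 0.14 at day 6 (adjusted p = 4.1e-05). In Karpas422, where SIX4 was already high, 10xLCC added 0.73 ± 0.14, 0.78 ± 0.14 and 0.76 ± 0.14 (adjusted p = 0.0014, 0.00014 and 9.7e-05), so the size was alike from day 2 on. The day 6 arrays read 9.88, 9.74 and 9.76 in DMSO and 10.52, 10.59 and 10.56 at 10xLCC. In WSU-DLCL2, whose DMSO level of 5.96 was close to that of SU-DHL6, the changes were -0.05, 0.32 and -0.20 and none was called. The second SIX4 probe set changed by -0.20 in SU-DHL6 and 0.03 in Karpas422 at day 6, and with the mean of both the Karpas422 change was 0.40 (adjusted p = 0.15). It was dim in DMSO at day 6, at 5.34 in Karpas422 and 3.88 in SU-DHL6. The SU-DHL6 level is below the log2 4 filter, so this probe set says little about the rise there. SIX6, whose promoter is printed above beside that of SIX4, was called in 0 of 24 comparisons, with a largest change of 0.43. Its 1 probe set was dim, with DMSO means of 4.52 to 4.70 over the lines. Whether this probe set would register a rise was not tested.

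SIX5, a factor studied in muscle and kidney, rose in SU-DHL6 and WSU-DLCL2. In SU-DHL6 at day 6 DMSO read 6.06, 5.93 and 6.29, LCC 6.39, 6.54 and 6.48 and 10xLCC 7.26, 7.11 and 7.12. The bands were again separate, and the rise at 10xLCC was 1.07 ± 0.11 (adjusted p = 5.8e-09), after 0.46 ± 0.11 and 0.40 ± 0.11 at days 2 and 4 (adjusted p = 0.0052 and 0.0068). In WSU-DLCL2 it rose by 0.56 ± 0.14, 0.77 ± 0.14 and 0.40 ± 0.14 at days 2, 4 and 6 (adjusted p = 0.004, 9.7e-05 and 0.027). At day 6 in SU-DHL6 the other 2 SIX5 probe sets were lower than DMSO on every array, by -0.38 and -0.36, and with the mean of all 3 the change was 0.11 (adjusted p = 0.31). The same mean gave 0.08 in SU-DHL6 at day 4 and 0.14 in WSU-DLCL2 at day 6 (adjusted p = 0.62 and 0.13). In WSU-DLCL2 the other 2 probe sets changed by -0.16 and 0.06 at day 2 and by -0.02 and -0.04 at day 4. The day 4 call there was lost under 0 of 17 alternatives. The WSU-DLCL2 call at day 6 was also lost without any of 4 single arrays, the lowest value being 0.32 without 10xLCC replicate A.

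**Figure D5:**
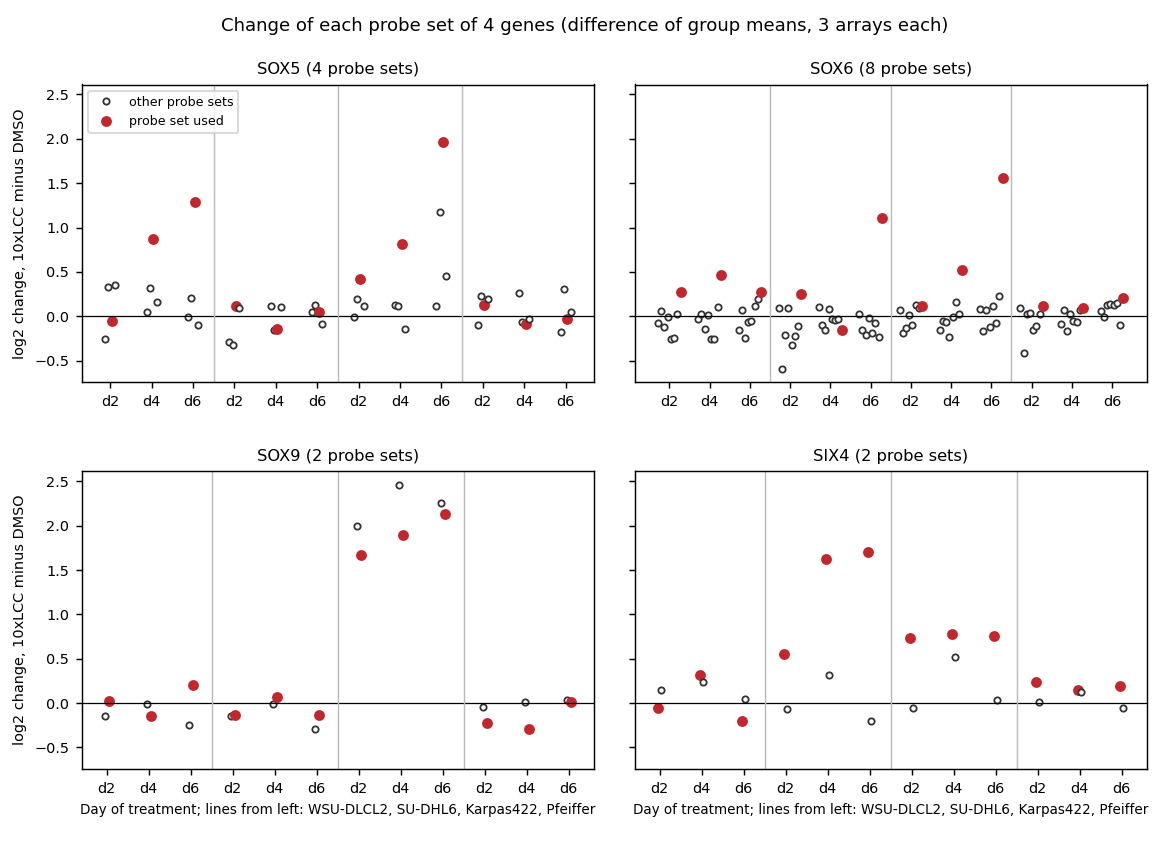
Change of every probe set of SOX5, SOX6, SOX9 and SIX4 at 10xLCC against DMSO (log2 difference of means of 3 arrays), by line and day. Filled points are the probe set used and open points the others: both SOX9 probe sets rise in Karpas422, 2 of 4 SOX5 probe sets do at day 6, and for SOX6 the used probe set stands alone above the other 7 at day 6 in SU-DHL6 and Karpas422.

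LHX4 was the only member that fell at least 2-fold. In WSU-DLCL2 at day 4 DMSO read 6.93, 7.34 and 7.08, LCC 6.68, 6.25 and 6.51 and 10xLCC 6.10, 6.08 and 5.99. The doses did not overlap. LHX4 fell by 1.06 ± 0.14 at day 4 and 0.58 ± 0.14 at day 6 (adjusted p = 1.1e-06 and 0.0015), and at LCC it fell by 0.64 ± 0.14 at day 4 (adjusted p = 0.00092). Untreated cells moved the same way, by -0.86 ± 0.14 from day 2 to day 6 (adjusted p = 0.00016), so the day 6 change starts from a lower control. All 3 LHX4 probe sets were lower at day 4, by 0.06 to 1.06 in size. In the other 3 lines LHX4 was not called at any dose. Of the other LHX genes, LHX3, a partner of LHX4 in the pituitary, rose by 0.48 ± 0.17 in Karpas422 at day 6 (adjusted p = 0.025), LHX1 rose by 0.24 ± 0.08 in WSU-DLCL2 at day 4 (adjusted p = 0.03), and LHX2 and LHX6 fell by 0.25 ± 0.08 and 0.38 ± 0.10 in SU-DHL6 at day 6 (adjusted p = 0.017 and 0.0026). The LHX3 change was 0.23 with the beta-actin covariate (adjusted p = 0.35), and its call was lost without any of 4 single arrays, at 0.37 to 0.46. The LHX1 call was lost under 8 of 17 alternatives, 3 of them single arrays, with a lowest value of 0.18 without DMSO replicate B. LHX2 was -0.09 with centring and 0.13 with the mean of its probe sets.

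PITX1 rose in 3 lines, each at a single day of 10xLCC. In WSU-DLCL2 at day 4 DMSO read 10.43, 10.40 and 10.32, LCC 10.86, 10.91 and 11.19 and 10xLCC 11.23, 11.37 and 11.15. The LCC arrays lay between the other groups, and one reached into the 10xLCC range. PITX1 rose there by 0.87 ± 0.08 (adjusted p = 7.8e-09), and the change at day 6 was 0.12 ± 0.08. The dose order was the other way at day 6, when LCC gave a rise of 0.46 ± 0.08 (adjusted p = 0.00013) and 10xLCC stood below LCC by -0.34 ± 0.08 (adjusted p = 0.0094). In SU-DHL6 it rose by 0.70 ± 0.19 at day 2 (adjusted p = 0.016), where DMSO replicate A, at 7.92, lay below the other DMSO arrays at 8.82 and 8.80. In Karpas422 it rose by 0.49 ± 0.11 at day 4 (adjusted p = 0.0017). Both PITX1 probe sets agreed in WSU-DLCL2, at 0.87 and 0.90. PITX3, a factor of midbrain dopamine neurons and lens, fell by 0.30 ± 0.10 in SU-DHL6 at day 6 (adjusted p = 0.019).

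The blood and heart regulators of the GATA family were close to flat. No GATA gene was called in WSU-DLCL2, Karpas422 or Pfeiffer at any dose or day, and no change of GATA1 or GATA3 exceeded 0.27. In SU-DHL6 at day 6 GATA4 fell by 0.50 ± 0.10, GATA5 by 0.32 ± 0.13 and GATA2 by 0.28 ± 0.10 (adjusted p = 0.0001, 0.047 and 0.026). With centring GATA5 was -0.16 and GATA2 -0.12, neither called. Among the T-box genes, TBX21, the master factor of type 1 T cell responses, rose by 0.27 ± 0.10 in WSU-DLCL2 at day 4 (adjusted p = 0.038), but this call was lost under 8 of 17 alternatives, 4 of them single arrays, and was 0.10 (adjusted p = 0.62) without replicate A. TBX19, a pituitary factor, rose by 0.39 ± 0.10 in SU-DHL6 and 0.55 ± 0.13 in Karpas422 at day 6 (adjusted p = 0.0022 and 0.0015). TBX1, the pharyngeal arch gene, fell by 0.66 ± 0.12 in SU-DHL6 at day 6 (adjusted p = 4.5e-05), after rising by 0.46 ± 0.12 between days 2 and 6 in DMSO (adjusted p = 0.028). TBX2 and TBX3 fell there by 0.43 ± 0.12 and 0.24 ± 0.09 (adjusted p = 0.0055 and 0.026), though TBX3 was -0.08 with centring (adjusted p = 0.62), and TBX4 and TBX5, their neighbours on chromosomes 17 and 12, were never called.

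Of the 10 NKX genes, which pattern heart, lung, gut and spinal cord, NKX1-1, NKX2-1, NKX2-8 and NKX6-2 fell in SU-DHL6 at day 6, by 0.28 to 0.43, and NKX3-2 rose by 0.30 ± 0.12 (adjusted p = 0.042). NKX6-3 rose in WSU-DLCL2 by 0.31 ± 0.10 and 0.27 ± 0.10 at days 4 and 6 (adjusted p = 0.015 and 0.032). NKX2-5 was never called. The DLX genes, which act in jaw, limb and forebrain, gave 5 calls in all. DLX5 fell in WSU-DLCL2 by 0.23 ± 0.07 at 10xLCC and day 2 and by 0.21 ± 0.07 at LCC and day 6 (adjusted p = 0.019 and 0.035). DLX4 rose by 0.42 ± 0.14 in WSU-DLCL2 at day 4 and fell by 0.47 ± 0.14 in Karpas422 at day 2 (adjusted p = 0.026 and 0.04), DLX2 fell by 0.34 ± 0.13 in SU-DHL6 at day 6 (adjusted p = 0.033), and DLX1, DLX3 and DLX6 were never called. DLX1 and DLX2, DLX3 and DLX4, and DLX5 and DLX6 each lie side by side. In none of these 3 pairs were both genes called, with 3 of the 6 DLX genes called at all. The neighbours NKX2-1 and NKX2-8 were both called, in 1 comparison each. How often both of 2 neighbouring genes were called over all genes was not counted.

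The 18 falls in SU-DHL6 at day 6, of 0.24 to 0.66, need to be set beside the rest of that array group. The median of tested members was -0.19 and of all genes -0.11, and the beta-actin ratio differed from DMSO as given above. With that ratio as a covariate 3 of the 24 calls were kept, SIX4 at 1.81, SIX5 at 0.80 and SOX6 at 1.90, while the share of all genes called went from 46.5% to 8.86%. The ratio ran from -0.198 to -0.151 on these DMSO arrays and from 0.185 to 0.442 at 10xLCC. With no overlap, the covariate cannot separate degradation from treatment, for lost and kept calls alike. No fall kept its call, though several were as large or larger, such as NKX6-2 at -0.80, GATA4 at -0.61 and NKX2-8 at -0.47, while NKX2-1 was -0.01. Without replicate B 10 members were called, 5 up and 5 down. In the same comparison 6 of 16 T cell and NK cell markers tested fell and 0 rose, as did 4 of 13 erythroid, megakaryocyte and mast cell markers, 3 of 9 myeloid markers, 4 of 10 neural markers and 2 of 14 epithelial and stromal markers. Of all genes 26.7% fell there and 19.8% rose. B cell markers (4 up, 0 down of 7), PRC1 subunits (8, 2 of 16) and cofactors (7, 2 of 21) had more rises. PRC2 subunits (4, 6 of 12), relatives outside the pattern (1, 4 of 17) and other developmental regulators (4, 18 of 59) had more falls. The list means of the T cell markers lay at 5.66 to 5.92 in DMSO and 5.45 to 5.86 at 10xLCC over all days. Over all 24 comparisons with DMSO the members gave 57 rises and 41 falls, and 49 and 18 without the SU-DHL6 day 6 comparisons at both doses. These totals count calls and not genes: SIX4 gave 10 of the rises, SIX5 9, and SOX5 and SOX9 7 each. No matching total was made over all genes, so whether the balance is particular to these families was not tested.

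At LCC 0, 6 and 6 members were called in WSU-DLCL2 at days 2, 4 and 6 (7.04%, 28.9% and 27.8% of all genes), 1, 4 and 3 in Karpas422 (2.68%, 8.88% and 26.3%), 1, 3 and 7 in SU-DHL6 (4.71%, 8.41% and 17.9%), and 0 on each day in Pfeiffer (0.0%; 3, 2 and 7 at unadjusted p under 0.05). SOX9 in Karpas422 and SIX4 in SU-DHL6 were called at LCC on all 3 days. The SIX4 call at day 2, 0.47 ± 0.14 (adjusted p = 0.048), was lost with centring, the covariate, averaged probe sets, the replicate block, the compared groups alone and without any 1 replicate letter. A direct test of 10xLCC against LCC at day 6 called 3 members in WSU-DLCL2 (13.0% of all genes), 1 higher at 10xLCC (3.94%) and 2 lower (9.07%). SU-DHL6 had 6 (27.3%), 4 higher (11.7%) and 2 lower (15.6%), Karpas422 had 4 (18.2%), 3 higher (9.57%) and 1 lower (8.64%), and Pfeiffer 1 (1.38%). SOX5 was higher at 10xLCC by 1.10 ± 0.16 in WSU-DLCL2 and 1.0 ± 0.11 in Karpas422 (adjusted p = 2.8e-05 and 2.2e-07). SOX6 was higher by 1.06 ± 0.24 in SU-DHL6 and 1.21 ± 0.31 in Karpas422 (adjusted p = 0.0013 and 0.0068). SIX4 was higher by 0.82 ± 0.14 in SU-DHL6 and 0.50 ± 0.14 in Karpas422 (adjusted p = 5.1e-05 and 0.015), and SIX5 by 0.69 ± 0.11 in SU-DHL6. The lower members were PITX1 and SOX4 in WSU-DLCL2, SOX4 by -0.52 ± 0.11 (adjusted p = 0.0028), SOX4 and SOX3 in SU-DHL6, by -0.35 and -0.28, and SOX12 in Karpas422, by -0.38. The Pfeiffer call was SIX5, higher at 10xLCC by 0.76 ± 0.16 (adjusted p = 0.018). It rests on LCC arrays that read 7.34, 6.89 and 7.34 against 7.81, 8.02 and 8.03 at 10xLCC and 7.56, 7.26 and 7.58 in DMSO, and it was lost without LCC replicate B, the array that stood apart.

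The 10xLCC effect at day 6 differed from that at day 2 for 1 member in WSU-DLCL2 (13.9% of all genes), which was higher (7.46% higher, 6.4% lower). It differed for 8 in SU-DHL6 (31.4%), 2 higher (10.3%) and 6 lower (21.1%), for 4 in Karpas422 (19.9%), 3 higher (9.68%) and 1 lower (10.2%), and for 0 in Pfeiffer (limma, 0.0%; 1 at unadjusted p under 0.05). SOX5 was higher by 1.34 ± 0.22 in WSU-DLCL2 and 1.54 ± 0.16 in Karpas422 (adjusted p = 0.00013 and 5.7e-08), SIX4 by 1.15 ± 0.19 and SIX5 by 0.61 ± 0.15 in SU-DHL6 (adjusted p = 4.4e-05 and 0.0025), and SOX6 by 1.44 ± 0.44 in Karpas422 (adjusted p = 0.02). The lower members in SU-DHL6 were TBX1 and SOX21, by -0.75 each, and SOX4, LHX2, GATA4 and TBX2, by -0.50 to -0.45, and in Karpas422 SOX12, by -0.75, while TBX2 was higher there by 0.52. SOX9 was not among them: its effect in Karpas422 was already 1.67 at day 2.

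The response of Pfeiffer was tested against the mean of the 3 Y641 lines. At day 4 the difference was called for 4 members (15.3% of all genes), all lower in Pfeiffer (7.65% of all genes lower, 7.62% higher): SOX9 by -0.89 ± 0.14, SIX4 by -0.76 ± 0.21, SOX5 by -0.61 ± 0.17 and TBX18. At day 6 it was called for 6 members (26.6%), 4 lower (11.9%) and 2 higher (14.7%): SOX5 by -1.14 ± 0.17, SOX6 by -0.77 ± 0.28, SOX9 by -0.73 ± 0.14 and SIX4 by -0.57 ± 0.21, with GATA4 and NKX1-1 higher by 0.37 and 0.38. For SOX9 this mean stands for 1 responding line. Each Y641 line was therefore also set against the mean of the other 3, a comparison added after the data were seen. Karpas422 exceeded the others in SOX9 by 2.01 ± 0.14 at day 4 and 2.11 ± 0.14 at day 6 (adjusted p = 3.4e-21 and 6.5e-23) and in SOX5 by 1.53 ± 0.17 at day 6 (adjusted p = 3.5e-12). The difference was called for 3 members at day 4 (17.0% of all genes), 2 higher (5.91%) and 1 lower (11%), and for 6 at day 6 (26.5%), 4 higher (11.7%) and 2 lower (14.8%). SOX12 was lower on both days, by -0.63 and -0.88. SU-DHL6 exceeded the others in SIX4 by 1.21 ± 0.21 and 1.45 ± 0.21 (adjusted p = 7.1e-06 and 3.1e-08) and in SIX5 by 0.71 ± 0.16 at day 6 (adjusted p = 0.0003). With averaged probe sets the SIX5 difference was -0.0. SU-DHL6 had 5 members called at day 4 (9.75%), 2 higher (5.62%) and 3 lower (4.13%), and 12 at day 6 (29.2%), 4 higher (13.4%) and 8 lower (15.9%). SOX5 and SOX9 were lower on both days, by -1.02 and -0.91 at day 6, as were TBX1 and GATA4 at day 6, by -0.65 and -0.57. WSU-DLCL2 fell below the others in LHX4 by 1.10 ± 0.20 and 0.63 ± 0.20 and exceeded them in SOX5 by 0.68 ± 0.17 and 0.63 ± 0.17. It had 8 members called at day 4 (23.8%), 5 higher (14%) and 3 lower (9.81%), and 5 at day 6 (20.6%), 2 higher (9.68%) and 3 lower (10.9%), SIX4 by -1.08 among them. No member was called as a rise at 10xLCC and day 6 in all 3 Y641 lines.

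Genes that work with these factors were read from lists made for the purpose. The 21 tested cofactors were LIM-only proteins, LIM domain binding and SSBP proteins, EYA and FOG proteins and others, read at 10xLCC and day 6. WSU-DLCL2 had 4 up (17.0% of all genes) and 3 down (19.2%), and SU-DHL6 had 7 up (19.8%) and 2 down (26.7%). Karpas422 had 4 up (18.4%) and 2 down (19.2%), and Pfeiffer 1 up (0.222% called either way). These shares of all genes stand beside every list count at this dose and day, and no list was tested against them. LMO4, a LIM-only partner of LIM homeodomain complexes, rose by 2.94 ± 0.09 in Karpas422 (adjusted p = 1.6e-18) and fell by 0.54 ± 0.09 in WSU-DLCL2 at day 4 (adjusted p = 1.8e-05). SSBP3, which stabilises the same complexes, rose by 1.73 ± 0.13 in SU-DHL6 and 1.06 ± 0.16 in Karpas422 (adjusted p = 7e-11 and 6.2e-06). LMO2, a partner of GATA factors and a germinal centre gene, rose by 0.99 ± 0.08 in SU-DHL6 (adjusted p = 6.9e-11). Of the relatives that the name pattern leaves out, 16 were tested in WSU-DLCL2, with 0 up and 2 down, and 17 in SU-DHL6, with 1 up and 4 down. None of 16 was called in Karpas422 and none of 17 in Pfeiffer (limma at 10xLCC and day 6; 1 in each line at unadjusted p under 0.05). MSX1 fell by 0.53 ± 0.08 in WSU-DLCL2 (adjusted p = 4e-06), and MGA, a T-box protein of a non-canonical PRC1 complex, rose by 0.69 ± 0.11 in SU-DHL6 (adjusted p = 1.2e-05) and fell by 0.33 ± 0.10 in WSU-DLCL2 (adjusted p = 0.01).

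Other developmental regulators, a list of HOX, PAX, POU, FOX and like genes, were counted at 10xLCC and day 6. WSU-DLCL2 had 6 rises (17.0% of all genes) and 0 falls (19.2%) among 58 tested, and SU-DHL6 4 (19.8%) and 18 (26.7%) among 59. Karpas422 had 7 (18.4%) and 3 (19.2%) among 58, and Pfeiffer none among 59 (0.222%; limma, 2 at unadjusted p under 0.05). The same shares of all genes stand beside the Polycomb and B cell counts below. HOXB3 rose in all 3 Y641 lines, by 0.75 ± 0.17, 0.88 ± 0.13 and 2.12 ± 0.19 (adjusted p = 0.00073, 3e-06 and 9.8e-10). The Polycomb complexes themselves were read the same way. Among 12 PRC2 subunits tested there were 3 rises and 8 falls for WSU-DLCL2, 4 and 6 for SU-DHL6, 3 and 6 for Karpas422 and none for Pfeiffer (limma; 0 at unadjusted p under 0.05), and PHF19 fell by 1.21 ± 0.08, 1.63 ± 0.10 and 2.13 ± 0.13 in the 3 Y641 lines (adjusted p = 2.9e-12, 1.1e-12 and 2.9e-13). EZH1, the other catalytic subunit, rose by 0.76 ± 0.11, 1.35 ± 0.10 and 0.51 ± 0.09. Among 16 PRC1 subunits Karpas422 had 7 up and 3 down, SU-DHL6 8 up and 2 down, WSU-DLCL2 7 up and 5 down, and Pfeiffer 0 (limma; 1 at unadjusted p under 0.05). In Karpas422 the median change was -0.36 over the PRC2 list, 0.19 over the PRC1 list and 0.0 over the developmental list, against -0.03 over all genes. CBX7, which reads the H3K27 mark, rose by 1.08 ± 0.11, 2.17 ± 0.10 and 1.97 ± 0.12 in the Y641 lines (adjusted p = 1e-08, 7.3e-15 and 4.3e-13). B cell markers rose for 5, 4 and 5 of 7 genes in these lines and for 0 in Pfeiffer (limma; 0 at unadjusted p under 0.05).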

How the data were processed

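Human lymphoma RNA was measured on 108 Affymetrix arrays, processed by the authors with GCRMA, per the submitters' processing notes; no version was named there. Deposited were linear intensities, 5.79 to 31846.0, 1 per probe set and array. GCRMA corrects background, normalises by quantiles and summarises probes, so a change shared by all genes would be largely removed. Depth does not apply to arrays; the number of arrays, 3 per group, limits precision. No columns lacked a sample and no arrays were identical.

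The intensities were taken to log2 with a pseudocount of 0. Annotation gave 1 gene for 41097 of 54675 probe sets, several for 1801 and none for 11777. All 69 members matched RefSeq by gene identifier. limma 3.58.1 (lmFit and eBayes, R 4.3.3) fitted the 9 groups of a line together, on genes at log2 4 or more on at least 3 of 27 arrays. Benjamini-Hochberg adjustment covered every gene tested in the line. A model over all 108 arrays gave the comparisons between lines. Tests are two-sided. An exact permutation test of 3 arrays against 3 cannot go below 0.1. Changes are given with SE and group levels with SD.

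Named members were those called at 10xLCC with a change of at least 1 log2 at day 4 or 6, the 5 brightest in DMSO per line, EZH2, and up to 4 genes per list by p; the other members named were chosen after their values were seen. Members and the 11 lists were chosen with earlier results of these data known, and the lists support nothing on their own. Alternatives were no filter, a stricter filter (log2 6), averaging a gene's probe sets, arrays centred on bright genes, trend and robust variances, the replicate letter as a block, the compared groups alone, the beta-actin ratio as a covariate, and leaving out arrays.

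The fit was tested on simulated data: of 200 changed genes of 18845 in Karpas422 at day 6, 97% of 1 log2 changes and 58% of the smaller ones were recovered with 4 false calls. In Pfeiffer, over 18963 genes, these were 91% and 37% with 8.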

Additional observations from a re-analysis of the deposited data

Results flagged for a closer look

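The response to 10xLCC differed between Pfeiffer and the mean of the 3 Y641 lines, by limma's test of the difference itself, for 3 members at day 4 and 4 at day 6 whose own change was also called in a Y641 line. At day 4 the differences were -0.89 for SOX9, -0.76 for SIX4 and -0.61 for SOX5. At day 6 they were -1.14 for SOX5, -0.77 for SOX6, -0.73 for SOX9 and -0.57 for SIX4. In Pfeiffer itself none of these genes was called. SOX9 was not called at 10xLCC in WSU-DLCL2 or SU-DHL6 either, SOX5 not in SU-DHL6 and SIX4 not in WSU-DLCL2, so each difference comes from 1 or 2 lines of the 3. With the mean of the 8 SOX6 probe sets its difference was 0.00.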

How the results depend on the processing

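With 3 arrays a group and no sequencing depth, small changes near the background of the array limit what can be called. Of the 57 member calls at 10xLCC and days 4 and 6, 37 held with arrays centred on bright genes, 35 with the beta-actin covariate, 43 with averaged probe sets and 57 with no filter. Counts here are members called, the value of the report first; drift is DMSO day 6 against day 2, the dose step 10xLCC against LCC at day 6, and time step the day 6 effect minus that of day 2. Centring gave 2 to 0 for the SU-DHL6 drift in DMSO, 1 to 0 for SU-DHL6 LCC day 2, 24 to 10, 5 to 13 and 7 to 14 for 10xLCC day 6 in SU-DHL6, WSU-DLCL2 and Karpas422, 3 to 16 for Karpas422 LCC day 6, 7 to 4 and 3 to 5 for 10xLCC day 4 in Karpas422 and SU-DHL6, and 3 to 6 for WSU-DLCL2 10xLCC day 2. It also gave 12 to 7 for the difference of SU-DHL6 from the mean of the other 3 lines at 10xLCC day 6. The covariate gave 24 to 3 for SU-DHL6 10xLCC day 6, 1 to 0 for SU-DHL6 LCC day 2, and for WSU-DLCL2 at day 2 it gave 3 to 1 at 10xLCC and 0 to 1 at LCC. A filter at log2 6 gave 2 to 1 for the SU-DHL6 drift, 1 to 2 for the Pfeiffer dose step and 3 to 5 for Karpas422 LCC day 6. Averaged probe sets gave 1 to 0 for the Pfeiffer dose step, for the WSU-DLCL2 time step and for SU-DHL6 LCC day 2, 0 to 1 for WSU-DLCL2 LCC day 2, 4 to 1 for Karpas422 10xLCC day 2 and LCC day 4, 2 to 1 for the SU-DHL6 drift, 8 to 4 for the SU-DHL6 time step and 3 to 6 for WSU-DLCL2 10xLCC day 2. The compared groups alone gave, at day 2, 3 to 0 and 1 to 0 in SU-DHL6 (10xLCC and LCC), 1 to 2 and 4 to 7 in Karpas422 (LCC and 10xLCC) and 0 to 5 and 3 to 6 in WSU-DLCL2, and at day 4, 4 to 7 in Karpas422 (LCC) and 11 to 7 in WSU-DLCL2 (10xLCC). Leaving out 1 replicate letter or array gave, at 10xLCC day 2, 1 to 3 in Karpas422, 1 to 4 in SU-DHL6 and 0 to 4 in WSU-DLCL2, and at day 4, 4 to 8, 1 to 6, 6 to 11 in Karpas422, SU-DHL6 and WSU-DLCL2 and, in Pfeiffer, 0 to 2, the 2 without LCC day 6 replicate B. At 10xLCC day 6 it gave 10 to 21 in SU-DHL6 and 3 to 6 in WSU-DLCL2. The dose step gave 2 to 7 in Karpas422, 0 to 3 in Pfeiffer, 2 to 4 in SU-DHL6 and 1 to 4 in WSU-DLCL2, the Karpas422 time step 1 to 3, and the drift 0 to 1 in SU-DHL6 and 1 in WSU-DLCL2. At LCC it gave 0 in SU-DHL6 at day 2, 2 to 3, 0 to 2 and 3 to 6 at day 4 and 3 to 7, 2 to 10 and 2 to 5 at day 6 in Karpas422, SU-DHL6 and WSU-DLCL2, and the Pfeiffer difference at day 6 gave 2 to 7. Signs turned with the covariate in SU-DHL6 at day 6 for NKX3-2 (-0.03), SOX12 (-0.03), GP1BA (0.05), LMX1B (0.12) and SOX4 (0.21). They turned with averaged probe sets for SOX6 in WSU-DLCL2 at day 4 (-0.01) and in the Pfeiffer difference at day 6 (0.0), SIX5 in the SU-DHL6 difference at day 6 (-0.0), TBX6 in Karpas422 at day 4 (0.02), PAX5 in Karpas422 at day 6 (-0.02), and COL1A1 (0.06), LHX2 (0.13) and SOX4 (0.14) in SU-DHL6 at day 6. The causes were not tested. Deviations of same-lettered arrays from their group means correlated at r from -0.473 to 0.452, with 18 of 72 pairs above 0.1. In 0 of 24 comparisons was every pair above 0.1. With 3 arrays a group and nothing in the labels, whether the letters pair samples stayed undetermined, and the main test used no pairing. With the letter as a replicate block 1 count of the report moved by over 1.5 times, SU-DHL6 LCC day 2, from 1 to 0. GATA5 in SU-DHL6 at day 6 then lost its call (-0.32, adjusted p = 0.059).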
